A study of Caenorhabditis elegans with 6 samples.

Results

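The genes described here are the Skp1-related genes (*skr*), the cullin genes (*cul*) and their closest partners in *C. elegans*, as measured in worms treated with pRJ-Fr.5, a fraction of protease-treated royal jelly. They were taken by name: every gene with a symbol of *skr* or *cul* and a number, together with *rbx-1*, *rbx-2*, *ned-8*, *cand-1*, *lin-23*, *sel-10*, *mel-26* and *zyg-11*. The rule found 35 of the 24747 genes on the array, namely 21 Skp1-related genes, 6 cullins, 2 genes of RING proteins, 2 genes that control cullins (*ned-8* and *cand-1*) and 4 genes of substrate receptors. Of these, 33 had a value on all 6 arrays, as did 16060 genes in all. In brief, 12 of the 33 rose with pRJ-Fr.5, 9 of which were Skp1-related, and none fell, where 10.7% of all genes rose and 19.1% fell.

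Cullin-RING ligases attach ubiquitin to chosen proteins, which are then mostly degraded by the proteasome. In an SCF ligase, the cullin CUL-1 is a scaffold that holds a RING protein at one end, where the ubiquitin-conjugating enzyme docks, and a Skp1-related adaptor at the other, and the adaptor holds an F-box protein that picks the substrate. Other cullins use other adaptors: CUL-2 uses elongins, CUL-3 uses BTB proteins and CUL-4 uses DDB-1. Cullins are switched on when the small protein NEDD8 is attached to them, the COP9 signalosome takes it off again, and CAND-1 helps to exchange receptors. *C. elegans* is known for an unusually large Skp1-related family, where other animals have one or a few such genes, and RNAi of several of its members disturbs cell proliferation or the shape of the body.

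Expression was compared between 3 control samples (0 µg/ml) and 3 samples treated with pRJ-Fr.5 (25 µg/ml) for 24 h from the larval stage L4. The methods give the dose in µg per ml, whereas the labels give the same number in mg per ml. All 6 samples were whole bodies of wild-type hermaphrodites of strain Bristol N2, fed on *Escherichia coli* OP50 killed with ultraviolet light, and many worms were pooled in each sample. The labels do not say whether the samples of a group came from separate cultures, so that p-values measure the spread between these samples, which may be technical.

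Each sample was hybridised to 1 array, and values are log2 signals relative to the 75th percentile of the array, on which a value of 0 is the signal at that percentile. Between 27729 and 34549 of 43603 probes were above background on an array, and the lowest number belonged to control replicate 3, which alone left out 4705 probes and whose negative-control spots spread by 5.42 signal units (SD), against 1.23 to 1.67 on the other arrays. Slide 1 held replicates 1 and 2 of both groups and slide 2 held replicate 3 of both. Replicates of a group differed by a median of 0.09 to 0.15 in log2. Markers of epidermis, intestine, muscle, neurons, germline, oocytes and sperm were present. The sperm gene *spe-9* had no value because its probe missed the background filter, and no probe was found for the sperm gene *ssp-9*, which was therefore not measured. Of the sperm markers, 3 of the 4 measured fell, where 19.1% of all genes did, and their summed signal was 41.4 to 45.3 times the 75th percentile in control arrays and 32.6 to 37.8 in treated arrays. Neither the 5 oocyte nor the 5 germline markers passed the threshold, with summed signals of 88.6 to 104 and 64.9 to 73.6 in control arrays and of 94.9 to 99.5 and 63.6 to 68.2 in treated arrays. Of the other markers, the epidermal collagen gene *bli-1* fell by 1.60 on the log2 scale (adjusted p = 0.00408, limma), while *col-19* differed by −0.06, and the intestinal yolk gene *vit-6* rose by 0.21 (adjusted p = 0.0476, limma), the single call among 4 intestinal markers. None of the 2 body wall muscle, 2 pharyngeal muscle and 4 neuronal markers passed the threshold. The part of the sperm and epidermal markers in the results below was not tested, and in whole worms fewer cells of a type and less RNA per cell cannot be told apart.

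pRJ-Fr.5 raised the expression of 12 of the 33 genes with a value (36.4%), where a gene was called at an adjusted p under 0.05 in limma. Over all 16060 genes, 10.7% were called higher and 19.1% lower. No gene of the group was called lower. None was lower at an unadjusted p under 0.05 in limma, where 3807 of all 16060 genes were. By the methods' t-test none was lower at that level either, and the share of all genes was not counted there. The median log2 difference was 0.23 for the 33 genes and 0.03 for all genes, and 30 of the 33 differences were positive (8736 of 16060 over all genes). In 23 of the 33 genes (69.7%) every treated array lay above every control array, against 24.6% of all genes, and in 2 genes every treated array lay below, against 25.2%. The Skp1-related genes made up most of the calls, with 9 of 19 (47.4%) and a median difference of 0.39, while the other 14 genes had 3 calls (21.4%) and a median of 0.16. The difference between these shares was not tested.

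**Figure D1:**
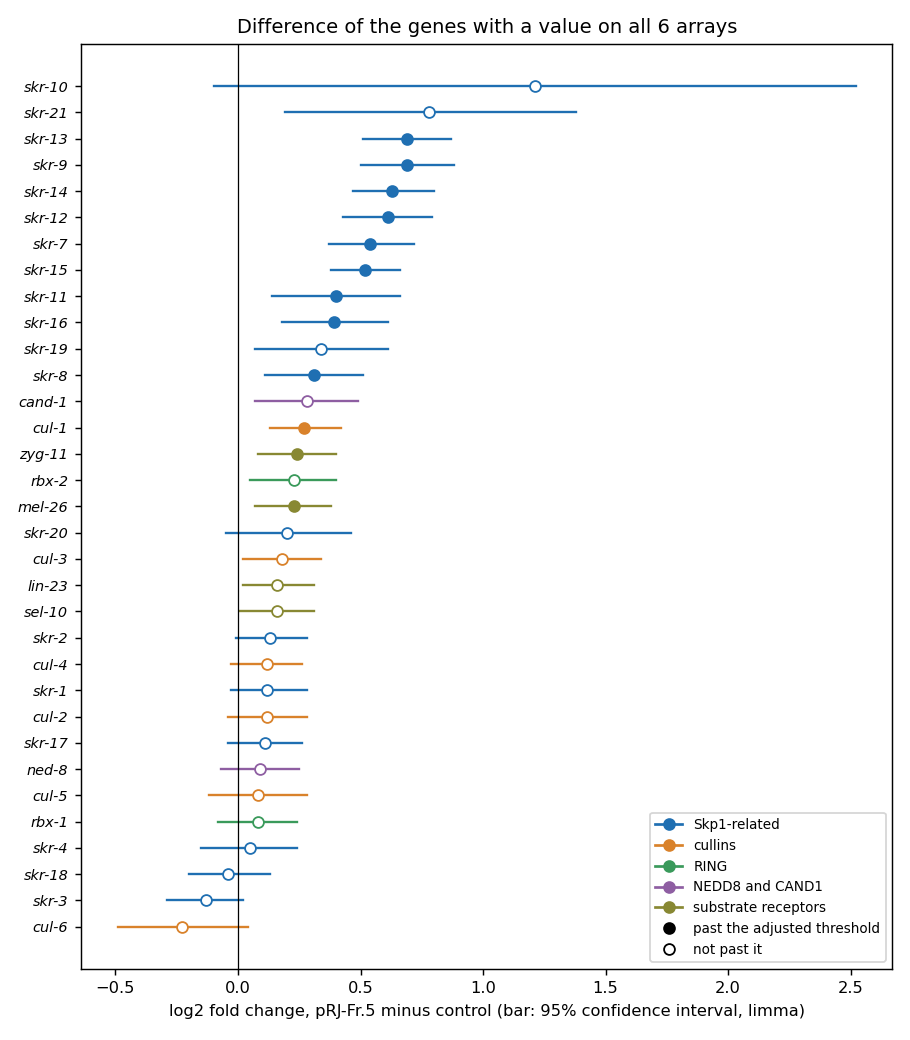
Log2 difference between pRJ-Fr.5 and control (x axis, with 95% confidence intervals from limma) for the 33 genes with a value on all 6 arrays (y axis), coloured by role, with filled points for genes past an adjusted p of 0.05. The filled points all lie to the right of 0, and the widest interval belongs to *skr-10*, from −0.10 to 2.52.

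A group of 6 Skp1-related genes had the clearest increase: *skr-7*, *skr-9*, *skr-12*, *skr-13*, *skr-14* and *skr-15* rose 1.44- to 1.62-fold. Their products are adaptors by sequence, that is, proteins of the kind that links an F-box protein to CUL-1, and SKR-7 and SKR-9 belong to those whose RNAi slows growth and alters the shape of the posterior body.

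*skr-9* (C52D10.7) read −1.47, −1.50 and −1.55 in the control arrays and −0.94, −0.69 and −0.80 in the treated arrays. The arrays of the groups were far apart, with a difference of 0.69 (SE 0.08, 95% CI 0.50 to 0.88), or 1.62-fold (adjusted p = 0.00213, limma). *skr-13* (C52D10.8) read 1.61, 1.66 and 1.67 in control and 2.21, 2.43 and 2.37 with treatment. It rose by 0.69 (SE 0.07, 95% CI 0.51 to 0.87), or 1.61-fold, and had the lowest adjusted p of the group (0.00203, limma). *skr-12* (C52D10.6), which lies on the same stretch of the genome, rose from 0.37 ± 0.05 to 0.98 ± 0.11 (mean ± SD, n = 3 arrays), with single values of 0.33, 0.36 and 0.43 against 0.87, 0.97 and 1.09. The lowest treated array was 0.45 above the highest control array, and the difference was 0.61 (SE 0.07, adjusted p = 0.00222, limma).

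*skr-14* (Y47D7A.8) was a dim probe, at −2.62, −2.55 and −2.63 in control and −2.06, −1.87 and −1.98 with treatment. It rose by 0.63 (SE 0.07, 95% CI 0.47 to 0.80), or 1.55-fold (adjusted p = 0.00206, limma). The neighbouring *skr-7* (Y47D7A.1) read 1.60, 1.67 and 1.66 in control and 2.07, 2.28 and 2.20 with treatment. It rose by 0.54 (SE 0.07, 95% CI 0.37 to 0.72), or 1.46-fold (adjusted p = 0.00262, limma). In both genes treated replicate 1 was the lowest of the treated arrays. It was so in 7 of the 12 genes that rose here and in 62.7% of all 1717 genes called higher.

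*skr-15* (F54D10.1) was the best measured of the group, since 5 probes gave it. The mean of its probes was 0.61, 0.68 and 0.67 in control and 1.16, 1.23 and 1.14 with treatment, a rise of 0.52 (SE 0.06, 95% CI 0.38 to 0.66), or 1.44-fold (adjusted p = 0.00208, limma). Its probes did not disagree: each one rose, by 0.44 to 0.56, and all 5 passed the threshold when probes were tested singly, where 8.78% of 27518 probes were called higher. These probes share the RNA of the same samples and are not replicates.

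The increase in these 6 genes was seen on both slides. Within slide 1 (2 arrays against 2) the differences were 0.67 for *skr-9*, 0.68 for *skr-13*, 0.58 for *skr-12*, 0.62 for *skr-14*, 0.55 for *skr-7* and 0.55 for *skr-15*. Within slide 2 (1 array against 1, with no test) they were 0.75, 0.70, 0.66, 0.66, 0.53 and 0.47 in the same order. All 6 stayed past the threshold under each of the 18 alternative settings that allow a test, with adjusted p-values of 0.00185 to 0.0352 (limma or the methods' t-test). They were the only called genes here that did so, and they were grouped with their values seen. The alternatives reuse the same 6 arrays and are not independent tests. Without control replicate 3, the array with the noisiest background, the differences of the 6 genes ran from 0.53 to 0.70.

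**Figure D2:**
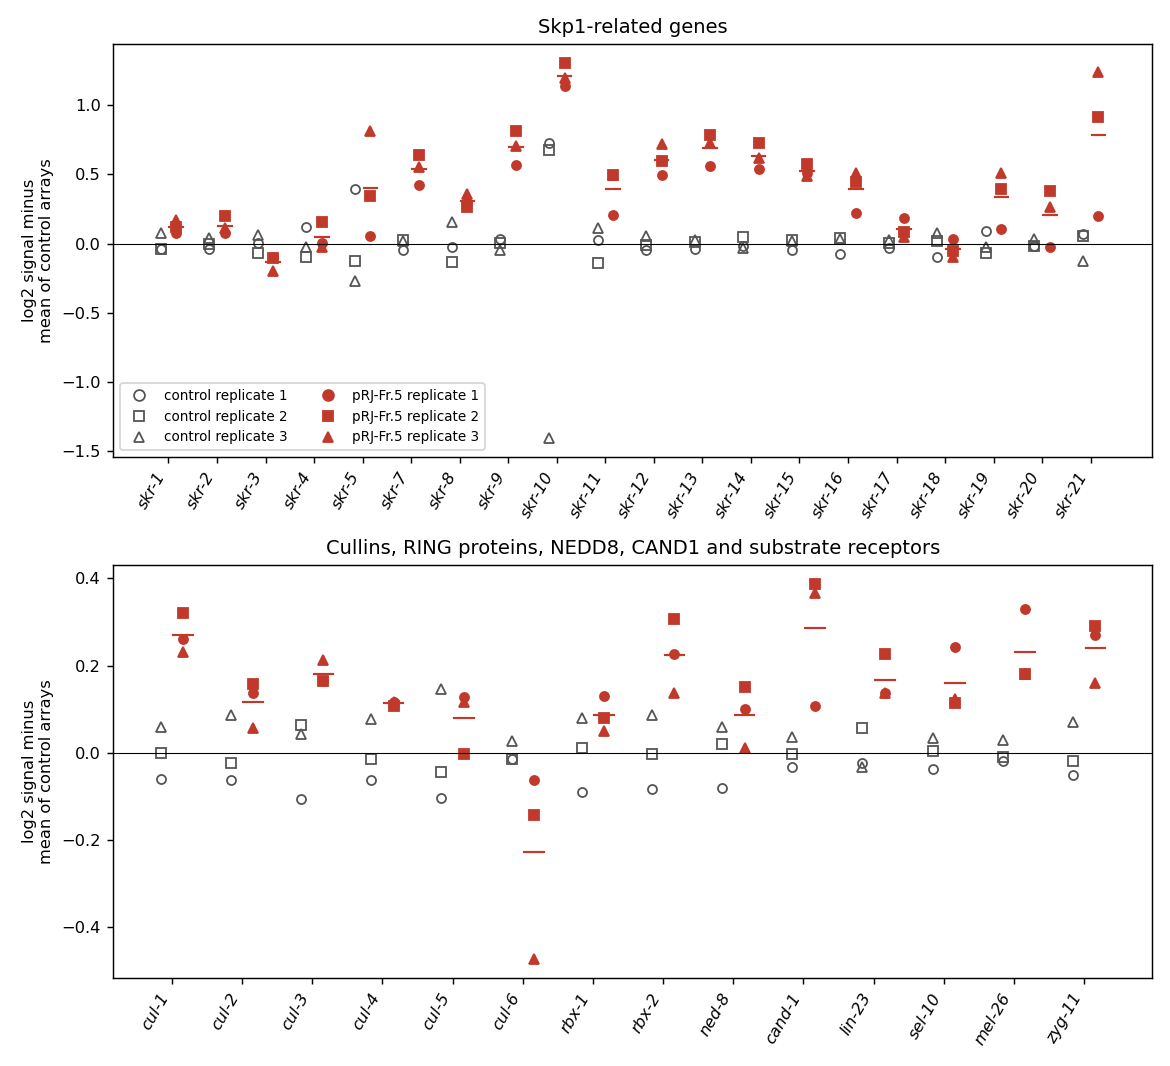
Log2 signal of each array minus the mean of the 3 control arrays (y axis) for each gene (x axis), with open symbols for control, filled symbols for pRJ-Fr.5, 1 shape per replicate number and a bar at the treated mean. For *skr-7*, *skr-9*, *skr-12*, *skr-13*, *skr-14* and *skr-15* the treated arrays lie together above the control arrays, while control replicate 3 stands apart for *skr-10* and treated replicate 1 for *skr-21*; *skr-5* was above background on all arrays of the treated group but not on control replicate 3.

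Some genes of this family sit side by side in the genome. In the RefSeq gene order of WBcel235, *skr-13*, *skr-9*, *skr-8* and *skr-12* follow each other with no other protein-coding gene between them, and so do *skr-14* and *skr-7*. All of these 6 neighbours rose, where 47.4% of the Skp1-related genes with a value and 10.7% of all genes did. The call of *skr-8* was lost under 10 of the 18 alternatives. *skr-20*, *skr-19* and *skr-21* also follow each other, and none of them passed the threshold in the fit reported. *skr-2* and *skr-1* are neighbours as well, with differences of 0.13 and 0.12 that did not pass. Several of these genes are near relatives in sequence. The probe sequences were not analysed here, and how far a probe also binds the RNA of a relative was not tested.

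The remaining calls in the family were weaker. *skr-8* (C52D10.9), the neighbour of *skr-9* and *skr-12*, read 1.68, 1.57 and 1.86 in control and 2.00, 1.97 and 2.06 with treatment, so that its highest control array came close to the treated ones. It rose by 0.31 (SE 0.09, 95% CI 0.11 to 0.51; adjusted p = 0.0362, limma). *skr-16* (C42D4.6) read −2.09, −1.97 and −1.98 against −1.79, −1.57 and −1.50 and rose by 0.39 (SE 0.09, 95% CI 0.18 to 0.61; adjusted p = 0.0180, limma). *skr-11* (F13A7.9), which RefSeq lists as a pseudogene, read −2.33, −2.49 and −2.24 against −2.15, −1.86 and −1.86 and rose by 0.40 (SE 0.11, 95% CI 0.14 to 0.66; adjusted p = 0.0344, limma). For each of these genes every treated array was above every control array, but the call was lost under 10 of the 18 alternatives for *skr-8*, 7 for *skr-16* and 10 for *skr-11*. Leaving out control replicate 1, control replicate 2 or treated replicate 2 each ended all 3 calls, with adjusted p-values of 0.0511 to 0.119.

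In 4 further Skp1-related genes 1 array stood apart from the others of its group. *skr-10* (Y105C5B.13), another of the adaptors that RNAi links to body shape, read 1.31, 1.26 and −0.82 in control and 1.72, 1.89 and 1.78 with treatment. The array at −0.82 was control replicate 3, more than 2 below the other control arrays, and the difference of 1.21 (SE 0.55, 95% CI −0.10 to 2.52) did not pass the threshold (adjusted p = 0.136, limma). Without control replicate 3 the difference was 0.51 and it passed (adjusted p = 0.0167, limma), and within slide 1 it was 0.52 (adjusted p = 0.0307, limma). Leaving out the array that stood apart narrows the spread by construction. In these fits 5.14% and 2.99% of all genes were called higher. *skr-10* was the single gene of the group with a mean difference of at least 1.8-fold, the size that the methods required.

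For the neighbours *skr-21*, *skr-19* and *skr-20* it was treated replicate 1 that stood apart. *skr-21* (K08H2.1) read −2.98, −2.99 and −3.17 in control and −2.85, −2.13 and −1.81 with treatment, with a difference of 0.78 (SE 0.25, 95% CI 0.19 to 1.38; adjusted p = 0.0556, limma). *skr-19* (R12H7.3) read −0.96, −1.12 and −1.08 against −0.95, −0.66 and −0.54, with a difference of 0.34 (95% CI 0.07 to 0.61; adjusted p = 0.0643, limma). Its 7 probes gave differences of 0.25 to 0.38, and none passed the threshold singly. *skr-20* (R12H7.5) read 0.62, 0.62 and 0.67 against 0.61, 1.02 and 0.90, with a difference of 0.20 (95% CI −0.05 to 0.46; adjusted p = 0.190, limma). In each of these genes treated replicate 1 lay at or close to the control level and treated replicates 2 and 3 lay above it. Without treated replicate 1 all 3 passed, at 1.08 for *skr-21* (adjusted p = 0.00198, limma), 0.45 for *skr-19* (adjusted p = 0.00854, limma) and 0.32 for *skr-20* (adjusted p = 0.0159, limma). These genes were grouped by that array being low, so leaving it out raises the difference by construction. Without it 13.6% of all genes were called higher. With all 6 arrays kept, *skr-21* also passed under normexp background correction (0.66, adjusted p = 0.0406), quantile normalization (0.82, 0.0477) and a shift to the median (0.82, 0.0319), each in limma. *skr-19* passed under normexp (0.32, adjusted p = 0.0474, limma) and a shift to the median (0.38, adjusted p = 0.0346, limma).

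**Figure D3:**
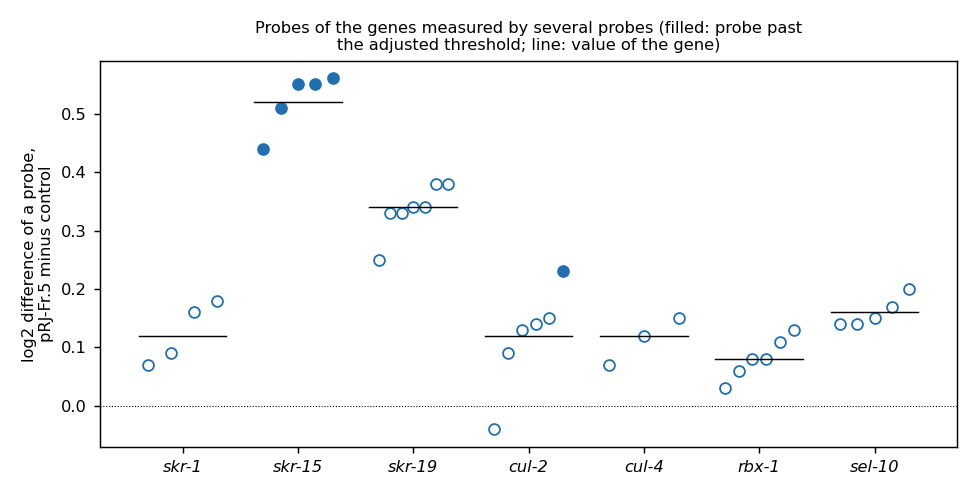
Log2 difference of each kept probe between pRJ-Fr.5 and control (y axis) for the 7 genes measured by several probes (x axis), with filled points for probes past an adjusted p of 0.05 and a bar at the value of the gene. The 5 probes of *skr-15* and the 7 probes of *skr-19* lie close together, and the 6 probes of *cul-2* spread from −0.04 to 0.23.

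The Skp1-related genes of the canonical SCF ligases showed little difference. *skr-1* (F46A9.5) and *skr-2* (F46A9.4), which encode the adaptors used in the embryo and needed for cells to stop dividing in time, differed by 0.12 (95% CI −0.03 to 0.28) and 0.13 (95% CI −0.01 to 0.28). *skr-1* read 1.04, 1.04 and 1.16 in control and 1.16, 1.2 and 1.25 with treatment, and its 4 probes gave 0.07 to 0.18. Neither gene passed the threshold (adjusted p = 0.180 and 0.143, limma). In *skr-2* every treated array lay above every control array, where 24.6% of all genes did so. The upper limits of both intervals lay below the differences of the 6 genes described first. Those 6 were grouped for a clear increase with their values seen, so that this contrast follows in part from the choice.

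*skr-3*, *skr-4* and *skr-5* encode adaptors that work with CUL-6 in the response to intracellular pathogens and heat. *skr-3* (F44G3.6) read 2.80, 2.73 and 2.86 in control and 2.70, 2.69 and 2.60 with treatment. All treated arrays were lower, but by a difference of −0.13 (95% CI −0.29 to 0.02) that did not pass (adjusted p = 0.160, limma). *skr-4* (Y60A3A.18) differed by 0.05 (95% CI −0.15 to 0.24). *skr-5* (F47H4.10) was near background and missed the filter on control replicate 3. With detection required in all arrays of 1 group, it read −4.78, −5.30 and −5.44 in control and −5.12, −4.83 and −4.36 with treatment, and the groups overlapped. It entered through the treated group alone, so that no test is given. The probe of *skr-6* (Y37H2C.2) was above background on 0 of the arrays and gave no value. *skr-17* (C06A8.4) and *skr-18* (F56B3.12) differed by 0.11 (95% CI −0.04 to 0.26) and −0.04 (95% CI −0.20 to 0.13).

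Of the 6 cullin genes, only *cul-1* passed the threshold. *cul-1* (D2045.6) encodes the scaffold of the SCF ligases, to which the Skp1-related adaptors bind, and its loss lets cells divide too often. It read 3.31, 3.37 and 3.43 in control and 3.63, 3.69 and 3.60 with treatment. The groups did not overlap, and the rise was 0.27 (SE 0.06, 95% CI 0.13 to 0.42), or 1.21-fold (adjusted p = 0.0175, limma). It was 0.32 within slide 1 and 0.18 within slide 2. The call was lost under 6 of the 18 alternatives, among them leaving out control replicate 1 (adjusted p = 0.0604), control replicate 2 (0.0664) or treated replicate 2 (0.0824), each in limma.

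The other cullins gave smaller values. *cul-3* (Y108G3AL.1), the scaffold of the BTB ligases, read −0.95, −0.78 and −0.80 against −0.68, −0.68 and −0.63, a difference of 0.18 (95% CI 0.02 to 0.34; adjusted p = 0.0798, limma). *cul-4* (F45E12.3), which limits DNA replication to one round, differed by 0.12 (95% CI −0.03 to 0.26) with 3 probes at 0.07 to 0.15, and *cul-5* (ZK856.1) by 0.08 (95% CI −0.12 to 0.28). *cul-2* (ZK520.4), which drives cell cycle steps in the germline and embryo, differed by 0.12 (95% CI −0.04 to 0.28). Its 6 probes were not alike: they gave −0.04 to 0.23, and 1 of them passed the threshold (adjusted p = 0.0285 over probes, limma).

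*cul-6* (K08E7.7) was the one cullin with a negative difference. It read −1.61, −1.61 and −1.57 in control and −1.66, −1.74 and −2.07 with treatment. The groups did not overlap, but the treated arrays spread widely, and the difference of −0.23 (SE 0.11, 95% CI −0.49 to 0.04) did not pass (adjusted p = 0.162, limma). It was −0.09 within slide 1 and −0.51 within slide 2. *cul-6* and *skr-3*, whose products act in the same ligase, were the 2 of 33 genes in which every treated array lay below every control array. Over all genes that share was 25.2%. Of the other adaptors of that ligase, *skr-4* differed by 0.05 with groups that overlapped, and *skr-5* was near background.

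The RING proteins and the regulators of cullins had no call. *rbx-1* (ZK287.5), the RING protein of most cullin ligases, differed by 0.08 (95% CI −0.08 to 0.24; adjusted p = 0.383, limma), and its 6 probes gave 0.03 to 0.13. *rbx-2* (R10A10.2), the RING protein that pairs with CUL-5 in mammals, read −2.23, −2.15 and −2.06 against −1.92, −1.84 and −2.01, a difference of 0.23 (95% CI 0.05 to 0.40; adjusted p = 0.0627, limma). Its arrays did not overlap. *ned-8* (F45H11.2), the activating tag, differed by 0.09 (95% CI −0.07 to 0.25; adjusted p = 0.345, limma). *cand-1* (Y102A5A.1), the exchange factor, was measured by 1 dim probe. Its control mean was the lowest of the genes described here with a value on all 6 arrays. It read −4.20, −4.17 and −4.13 in control and −4.06, −3.78 and −3.80 with treatment. The difference was 0.28 (95% CI 0.07 to 0.49, adjusted p = 0.0524, limma). Without treated replicate 1, the closest of the treated arrays to control, it was 0.37 and passed (adjusted p = 0.00640, limma), and with all 6 arrays it passed under a shift to the median (0.32, adjusted p = 0.0398, limma). Leaving out the closest array raises the difference by construction, and 13.6% of all genes were then called higher.

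All 4 substrate receptors were higher on every treated array than on any control array, where 24.6% of all genes were. Of the 4, 2 were called, where 10.7% of all genes were called higher. *zyg-11* (C08B11.1), a receptor of CUL-2 that is needed for meiosis and for the axis of the embryo, read 3.71, 3.74 and 3.83 in control and 4.03, 4.05 and 3.92 with treatment. It rose by 0.24 (SE 0.07, 95% CI 0.08 to 0.40; adjusted p = 0.0352, limma), with 0.32 within slide 1 and 0.09 within slide 2. *mel-26* (ZK858.4), the BTB receptor through which CUL-3 removes the katanin subunit MEI-1 after meiosis, read 0.61, 0.62 and 0.66 against 0.96, 0.81 and 0.81. It rose by 0.23 (SE 0.06, 95% CI 0.07 to 0.38; adjusted p = 0.0391, limma), with 0.27 within slide 1 and 0.15 within slide 2. Both calls were unstable: *mel-26* lost its call under 14 of the 18 alternatives, the most of the 12 genes, among them each of the arrays left out in turn (adjusted p = 0.0511 to 0.121, limma), and *zyg-11* lost it under 9, among them each array left out except treated replicate 3. With the slide as a block, neither passed (adjusted p = 0.0571 for *mel-26* and 0.0532 for *zyg-11*, limma).

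The F-box receptors did not pass. *lin-23* (K10B2.1), the relative of β-TrCP that restrains cell division, read 2.18, 2.26 and 2.17 in control and 2.34, 2.43 and 2.34 with treatment, a difference of 0.16 (95% CI 0.02 to 0.31; adjusted p = 0.0848, limma). *sel-10* (F55B12.3), the relative of Fbw7 that turns over Notch proteins, differed by 0.16 (95% CI 0.01 to 0.31; adjusted p = 0.103, limma). Its 5 kept probes gave 0.14 to 0.20. A further *sel-10* probe was left out because control replicate 3 was below background there, at −7.13 against −2.59 and −2.47 in the other control arrays. With that probe kept the difference of *sel-10* was 0.42. The probe enters through the treated group alone, so that no test is given.

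Genes that act around these ligases gave few calls. Of 58 genes in 9 lists, 51 had a value. Of these, 6 rose (11.8%, against 10.7% of all genes) and 3 fell, where 19.1% of all genes did. The median difference was 0.15, against 0.03 for all genes, and 46 of the 51 differences were positive. Every treated array lay above every control array in 26 of the 51, against 24.6% of all genes, and below in 3, against 25.2%. At an unadjusted p under 0.05 in limma 20 of the 51 were higher, against 20.2%. None of the 5 genes of the NEDD8 enzymes and protease was called (median 0.17), nor was any of the 6 measured COP9 subunits (median 0.11). At an unadjusted p under 0.05 in limma, 3 of the former and 1 of the latter were higher, against 20.2% of all genes. Single genes rose in several lists. Among CUL-2 partners *lrr-1*, a receptor that acts in the germ cell cycle, rose by 0.20 (adjusted p = 0.0377, limma) and *zer-1*, a relative of *zyg-11*, by 0.21 (adjusted p = 0.0317, limma). The CUL-4 receptor *wdr-23*, which keeps the stress factor SKN-1 low, rose by 0.23 (adjusted p = 0.0376, limma). *ubc-3*, the Cdc34-like enzyme that hands ubiquitin to SCF ligases, rose by 0.25 (adjusted p = 0.0152, limma).

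Among 12 measured genes of known substrates, 2 rose, a share near the 10.7% of all genes, and the median over the list was 0.20. *cdt-1*, the replication licensing factor that CUL-4 removes, read −3.11, −3.06 and −3.12 in control and −2.78, −2.72 and −2.82 with treatment and rose by 0.32 (adjusted p = 0.00733, limma). The Notch receptor gene *lin-12*, a target of SEL-10, rose by 0.32 as well (adjusted p = 0.0174, limma). The genes that fell were *rcs-1*, *kel-8* and *dre-1*. *rcs-1*, which encodes a RING protein that works with CUL-6, read −0.18, −0.26 and −0.11 in control and −0.58, −0.72 and −0.84 with treatment. It fell by 0.53 (SE 0.08; adjusted p = 0.00437, limma), as the single call among 5 measured genes of 10 listed for the intracellular pathogen response (median 0.01), with −0.43 within slide 1 and −0.73 within slide 2. The BTB-Kelch gene *kel-8*, which acts on glutamate receptors, had a difference of −0.24 (adjusted p = 0.0291, limma), and the F-box gene *dre-1*, which times larval development, one of −0.23 (adjusted p = 0.0400, limma). Of these 9 genes, *cdt-1* and *rcs-1* stayed past the threshold under all 18 alternatives, and the others lost it under 6 to 13 of them.

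**Figure D4:**
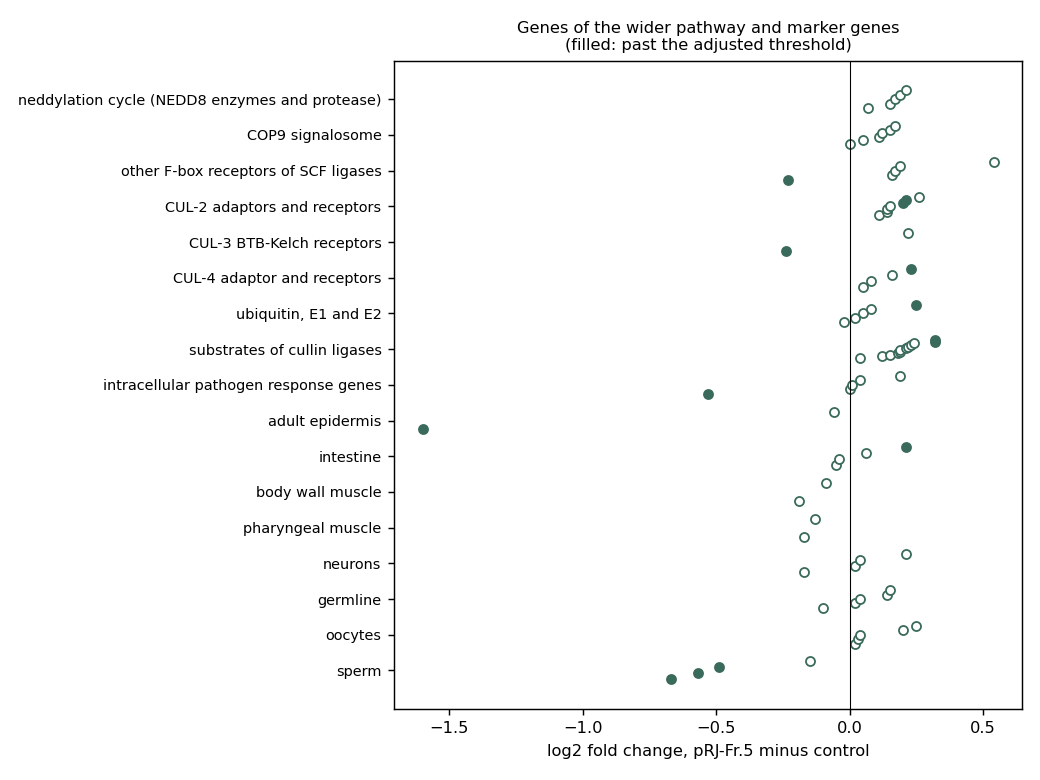
Log2 difference between pRJ-Fr.5 and control (x axis) for genes of the 9 pathway lists and of the 8 lists of tissue markers (y axis, 1 point per measured gene), with filled points for genes past an adjusted p of 0.05. *rcs-1*, at −0.53, is the lowest point of the pathway lists, and the open point at 0.54 is *mec-15*, for which control replicate 3 read 0.18 against 1.18 and 1.31 in the other control arrays.

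The size of the changes was modest throughout. The 12 genes that rose did so 1.17- to 1.62-fold, and none of the group passed both the methods' t-test and the 1.8-fold limit, which 2.44% of all genes did. By the methods' t-test without adjustment 18 of the 33 were higher, against 18.2% of all genes, and after Benjamini-Hochberg adjustment 9 were, against 7.52%. In limma without adjustment 19 were higher, against 20.2%. An exact permutation test of a single gene with 3 arrays a group cannot go below p = 0.1 (two-sided), and 25 of the 33 genes, those whose groups did not overlap, reached that value, against 49.7% of all genes with groups that did not overlap in either direction.

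**Figure D5:**
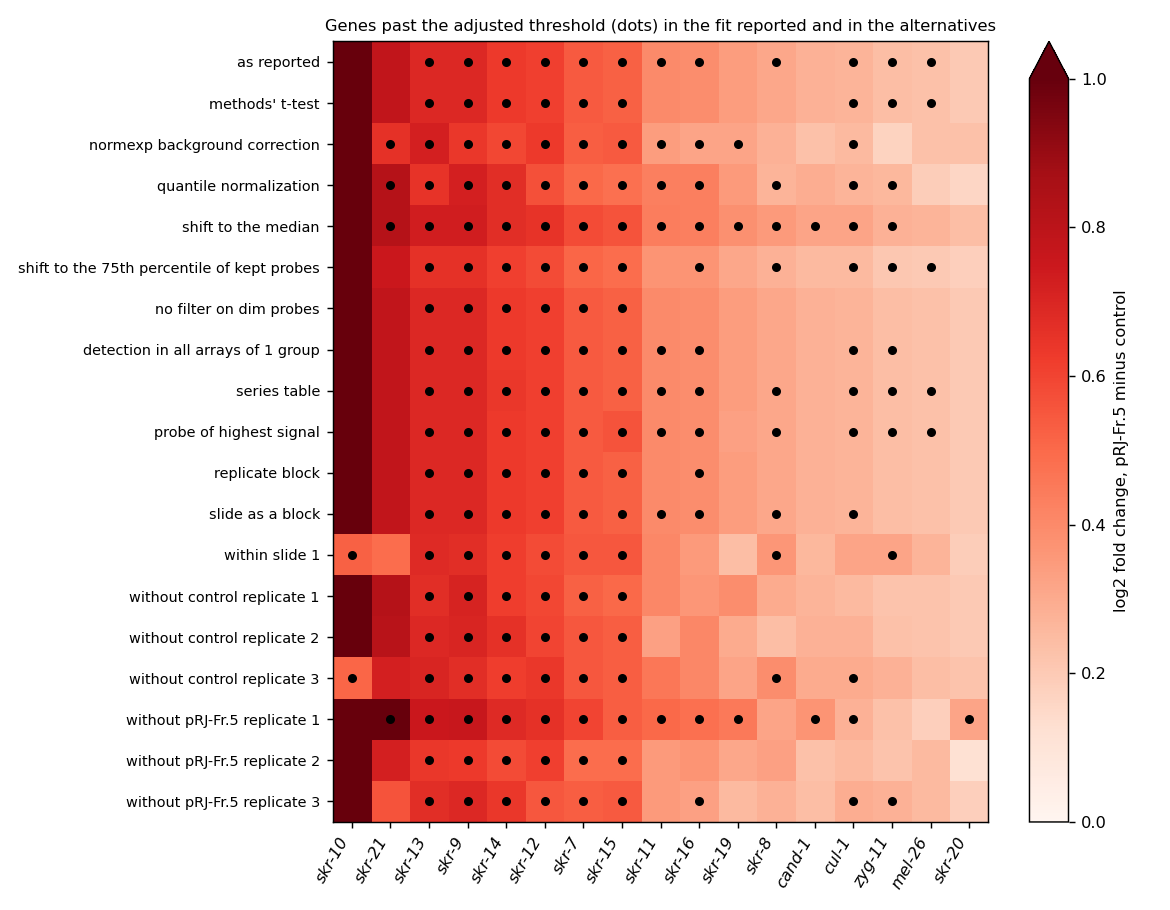
Log2 difference between pRJ-Fr.5 and control (colour, capped at 1) for the 17 genes past an adjusted p of 0.05 in at least 1 setting (x axis) in the fit reported and in the 18 alternatives (y axis), with a dot where the gene passed. *skr-7*, *skr-9*, *skr-12*, *skr-13*, *skr-14* and *skr-15* have a dot in every row, and *mel-26* in 5.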

How the data were processed

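Total RNA from whole worms was labelled with cyanine 3 and hybridised to 1-colour Agilent *C. elegans* (V2) 4x44K arrays, 1 array per sample. Per array, the authors deposited processed spot intensities made with Agilent Feature Extraction (version 10.7.1.1), which had been corrected for background but not scaled between arrays, and quality flags of 0 or 1. The table of the whole series that they deposited holds a linear ratio, the processed signal over the 75th percentile of its array, which was checked against the intensities. 

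The deposited intensities of each probe, without control and outlier spots, were averaged, put on the log2 scale and set against the 75th percentile of their array. Only probes whose flags marked them, on each of the 6 arrays, as significantly positive and well above background were used, and the value of a gene was their mean. No probe was saturated on any array. Symbols came from RefSeq through the sequence name, for 80.0% of probes. The arrays were annotated on another build than the RefSeq table, so that no coordinates are given. Of the 65 probes of the genes described here, 62 were kept.

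The groups were compared by limma (version 3.58.1, lmFit with eBayes and no block, run in R 4.3.3), with Benjamini-Hochberg adjustment over all 16060 genes. On simulated data for this comparison with 16060 genes, limma called 167 of 200 genes changed by a log2 value of 1, and 11 unchanged genes. The 12 genes that rose here changed less, 1.17- to 1.62-fold, and how often changes of that size are found was not simulated. The alternatives were the methods' t-test, normexp with an offset of 50 on the median signals (the mean signals were not in the columns used here), other scalings, other filters, the series table, the brightest probe, the replicate number or the slide as a block, each slide alone, and each array left out. The number of arrays limits the precision. The genes, the 9 pathway lists and the 8 marker lists were chosen with earlier results of these data known. Every gene of the naming rule is given, and of the pathway lists those past the threshold are named. *mec-15*, the genes of unequal slides or arrays and the 6 Skp1-related genes described first were singled out after their values were seen. Sequences of the probes were not analysed here.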

Additional observations from a re-analysis of the deposited data

How the results depend on the processing

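The fit reported called 12 genes higher. With no filter on dim probes the number was 6, where 2.25% of 24747 genes were called higher. Within slide 1 it was 9, against 2.99% of all genes. Of these 9, 8 were among the 12, and the other was *skr-10*. By the methods' t-test after adjustment it was 9, all among the 12, against 7.52% of all genes. With arrays shifted to their median it was 14, against 11.5% of all genes. Of these 14, 11 were among the 12, and the others were *cand-1*, *skr-19* and *skr-21*. The number lay between 10 and 12 under the other scalings, filters and sources of values and with the slide as a block. In those settings 7.74% to 10.7% of all genes were called higher. The slide as a block lost *mel-26* and *zyg-11*. With 1 array left out the number lay between 6 and 13: it was 6 without control replicate 1 (4.76% of all genes), control replicate 2 (3.99%) or pRJ-Fr.5 replicate 2 (3.35%), which each left *skr-7*, *skr-9*, *skr-12*, *skr-13*, *skr-14* and *skr-15*, and 13 without pRJ-Fr.5 replicate 1 (13.6%), of which 9 were among the 12 and the others were *cand-1*, *skr-19*, *skr-20* and *skr-21*. The number was 9 without control replicate 3 (5.14%) or pRJ-Fr.5 replicate 3 (7.13%). Calls lower numbered 0 under each alternative. The calls over all genes, 4789, became 2678 with no filter, 2804 within slide 1 and 2750 to 5511 with 1 array left out. No scaling moved the median of all genes by over 0.1. Over the single genes, 539 of 611 values under an alternative with a test kept their direction and their side of the threshold, 56 lost a call, 12 gained one and 4 changed sign, all in genes near 0: *skr-18* had 0.0031 with arrays shifted to their median and 0.026 within slide 1, and *skr-4* had −0.00052 without control replicate 2 and −0.0062 without pRJ-Fr.5 replicate 2. Of the 611 values, 17 belonged to *skr-5*, and all 17 were counted as kept. That gene entered through the treated group alone, so that its values say nothing on stability. Beyond the smaller number of arrays or the larger number of genes tested, the cause of the changed calls was not tested.

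Same-numbered arrays did not deviate together (correlations of −0.22, 0.06 and −0.01 for the 3 numbers, against −0.12 to 0.13 for other pairs), so that the numbers were not taken to pair the samples. With the replicate number as a replicate block, 7 of the genes described here were called higher, against 4.51% of all genes; *cul-1*, *mel-26*, *skr-8*, *skr-11* and *zyg-11* were not called, and no further gene was. Probes near background limit *skr-5* and *skr-6*.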
